A study of Rattus norvegicus with 12 samples.

Results

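The genes described here are the ADAM, ADAMTS and ADAMTS-like genes measured in rat long bone. They were taken as all probe sets whose only gene symbol begins with Adam, and the probe sets of a gene were averaged. This gave 34 genes from 47 probe sets, of 14217 genes and 31042 probe sets in all: 18 Adam, 12 Adamts and 4 Adamtsl genes. Of these, 25 genes had 1 probe set and 9 had several. Adamts2, Adamts13 and Adamts14, which process fibrillar procollagens or von Willebrand factor, were not analysed here.

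ADAM proteins are membrane-anchored metalloproteinases with a disintegrin domain, and the active ones release the outer parts of growth factors, cytokines and receptors from the cell surface. ADAMTS proteins are secreted, carry thrombospondin repeats and bind to the extracellular matrix, where they cut proteoglycans such as aggrecan and versican, procollagens and other matrix proteins. ADAMTS-like proteins have the same repeats without a protease domain and are known from fibrillin microfibrils. In the skeleton this family is best known for aggrecan breakdown in cartilage and for shedding of TNF and RANKL.

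Affymetrix rat genome arrays were hybridized with total bone RNA of female Sprague-Dawley rats in 4 groups of 3 arrays, with every array holding equal RNA of 2 to 3 pooled rats and no group resting on fewer than 8 rats. Sham rats were sham-operated and fed a casein control diet, OVX rats were ovariectomized and fed that diet, LTBB OVX rats were ovariectomized and fed 10% blueberry (BB) from postnatal day (PND) 20 to PND 81, and STBB OVX rats were ovariectomized and fed 10% BB from PND 20 to PND 34. Surgery was on PND 60 and all rats were sacrificed on PND 81. The sample labels give the bone as femur, whereas the methods name the right tibia. No group combined the sham operation with a BB diet, so a diet effect without ovariectomy cannot be read from these arrays.

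The deposited values are log2 values, and each probe set is centred so that its median across arrays is 0. A value of 0 is therefore the median of a probe set over the 12 arrays and not the middle of its range. Since most of these arrays are of ovariectomized rats, 0 lies among their values where sham stands apart. The level of a gene against another, or its presence in the bone at all, is not given. A difference of 1 on this scale is a 2-fold change. Genes were tested in 1 limma fit of the 4 group means over all 12 arrays, and a gene was called at a Benjamini-Hochberg adjusted p below 0.05 over all 14217 genes. These p-values rest on the variation among 3 pools of RNA per group. With so few pools the smallest p that exact permutation of a pair of groups could give is 0.1.

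The sham arrays stood apart from the 9 others over the whole table. Marker genes of skeletal muscle (10 of 10), erythroid cells (8 of 8) and neutrophils (4 of 4) were lower in OVX than in sham, with medians of -6.41, -2.91 and -2.94 on the log2 scale. Markers of cartilage (8 of 9), of osteoblasts and osteocytes (7 of 8) and of osteoclasts (5 of 5) were higher, with medians of 5.09, 2.63 and 3.43. So were most markers of stroma and tendon (7 of 9, 2 lower), of endothelium (7 of 8, 1 lower) and of macrophages (5 of 8, 1 lower), with medians of 1.35, 0.85 and 0.66. Of the B cell markers 1 of 4 was higher and 1 lower, and of the T and NK cell markers 1 of 8 was higher and 3 lower. Among the 9 arrays of ovariectomized rats the muscle markers still varied. The mean of the 10 markers spanned -3.44 to -1.32 for OVX pools and -3.57 to 0.46 for LTBB OVX pools. For STBB OVX pools its range was -0.097 to 0.70, beside 3.54 to 4.30 for sham. All 10 were above OVX under STBB (median 3.14) and LTBB (median 0.88), yet none was called. Against sham, 7 of 10 were called lower under STBB. The part of the listed tissues and cells in the results below, comparisons of the diets included, was not tested. In RNA of whole bone, fewer cells of a type and less RNA per cell cannot be told apart.

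Between OVX and sham, 17 of the 34 genes were higher in OVX (30.3 percent of all genes were), 4 were lower (28.6 percent) and 13 were not called. The called share was 61.8%, beside 58.9 percent of all genes tested, so the share by itself is close to that of the table. The median difference was 0.22 for the family and 0.0047 for all genes, and the median size without regard to sign was 0.33 and 0.31. When the first probe set of each gene stood for it, the family's median was 0.089. In 20 genes no OVX pool overlapped a sham pool (61.2 percent of all genes). A fold of at least 1.5 was passed by 13 genes (30.4 percent of all genes). The Adamts genes held most of the larger differences, with 7 of 12 higher, 1 lower and a median of 0.68. Of the Adam genes 8 of 18 were higher and 2 lower, with a median of 0.14. Quantile normalization of the arrays once more left 8 of the 21 calls: Adam15, Adam17, Adamts5, Adamts7, Adamts8, Adamts10, Adamts12 and Adamtsl2. It was applied to the centred values and left 3010 of all genes called, and it alters such values, as described in the closing section.

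**Figure D1:**
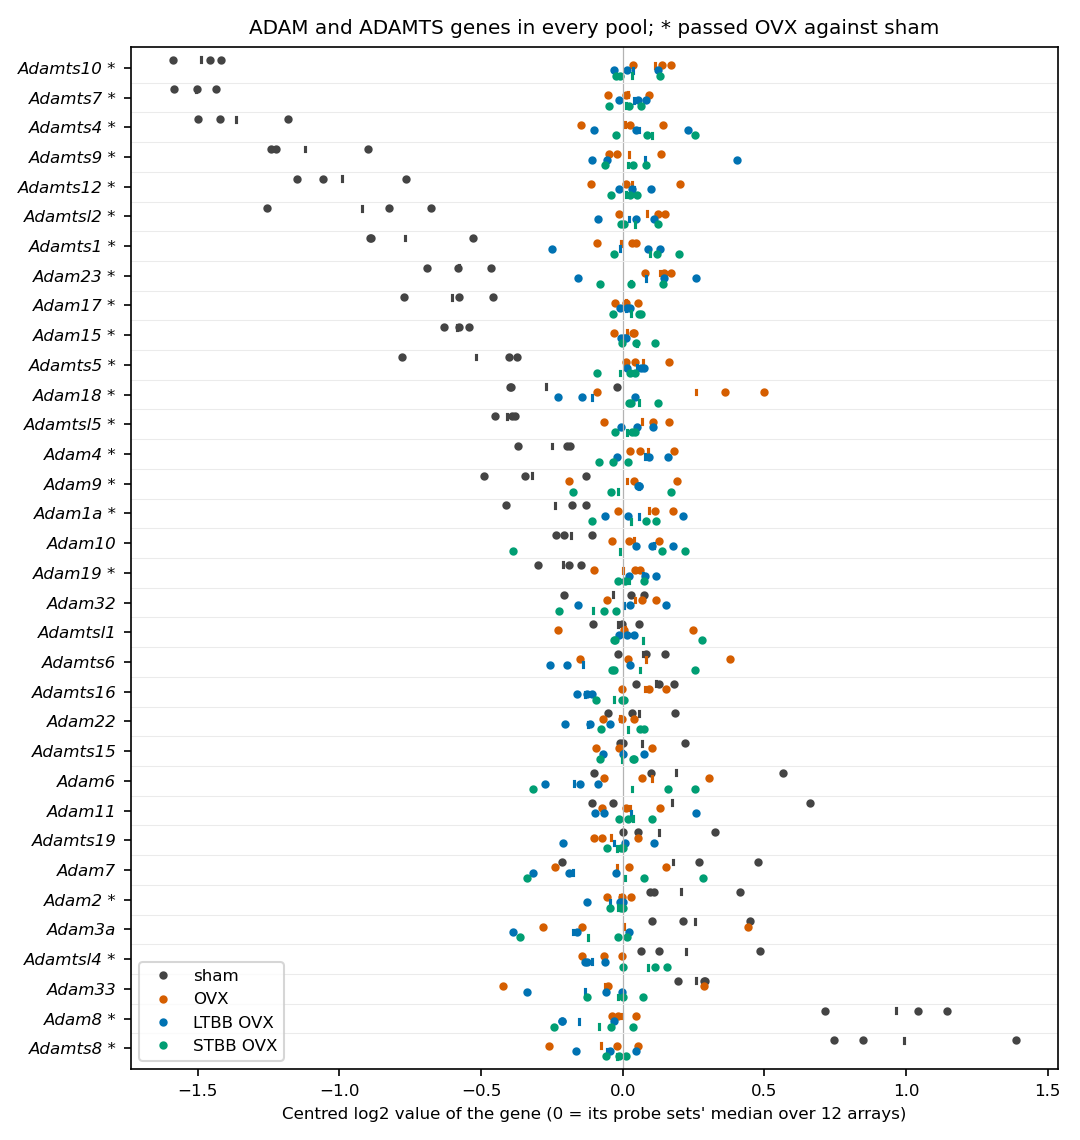
Centred log2 value (x axis) of each of the 34 genes (y axis, ordered by the difference between OVX and sham) in each pool, with points for pools and short bars for group means of 3 pools. In the genes at the top the sham pools lie left of all others (Adamts10, -1.59 to -1.42), in Adam8 and Adamts8 at the bottom they lie to the right, and the pools of the 3 ovariectomized groups lie together.

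Upstream sequence was looked at because 7 of the 12 Adamts genes rose together. RefSeq windows of 300 bases, from 250 before to 50 after the annotated start of a gene in the assembly GRCr8, were found for 19 of the 34 genes, and the first listed window of a gene was used. Printed 5′ to 3′ on the strand of the gene are those of the 4 genes with the largest rise and of Adam8, the gene with the largest fall that has a window. Capitals mark GGGCGG (the GC box) and TATAAA (the TATA box) on either strand, so that CCGCCC and TTTATA are the same motifs read from the opposite strand.
Adamts10, chr7:15033685-15033984, plus strand: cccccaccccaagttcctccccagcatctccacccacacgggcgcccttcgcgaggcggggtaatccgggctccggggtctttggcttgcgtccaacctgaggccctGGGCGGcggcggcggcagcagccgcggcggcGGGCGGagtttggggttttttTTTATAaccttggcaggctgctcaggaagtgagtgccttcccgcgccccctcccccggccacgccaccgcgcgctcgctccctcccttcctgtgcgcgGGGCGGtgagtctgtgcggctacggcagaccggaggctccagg
Adamts7, chr8:99584279-99584578, plus strand: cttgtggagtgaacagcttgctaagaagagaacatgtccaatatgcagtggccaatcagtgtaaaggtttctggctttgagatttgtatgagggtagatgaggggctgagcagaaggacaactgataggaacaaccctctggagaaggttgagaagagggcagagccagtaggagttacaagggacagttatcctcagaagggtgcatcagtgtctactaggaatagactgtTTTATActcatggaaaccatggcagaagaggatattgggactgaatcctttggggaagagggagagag
Adamts4, chr13:86202761-86203060, plus strand: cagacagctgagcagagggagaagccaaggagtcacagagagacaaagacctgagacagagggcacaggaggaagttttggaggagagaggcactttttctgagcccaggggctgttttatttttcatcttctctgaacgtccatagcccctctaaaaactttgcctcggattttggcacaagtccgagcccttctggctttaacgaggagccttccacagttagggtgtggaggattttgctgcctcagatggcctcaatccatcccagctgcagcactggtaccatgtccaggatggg
Adamts9, chr4:127019827-127020126, minus strand: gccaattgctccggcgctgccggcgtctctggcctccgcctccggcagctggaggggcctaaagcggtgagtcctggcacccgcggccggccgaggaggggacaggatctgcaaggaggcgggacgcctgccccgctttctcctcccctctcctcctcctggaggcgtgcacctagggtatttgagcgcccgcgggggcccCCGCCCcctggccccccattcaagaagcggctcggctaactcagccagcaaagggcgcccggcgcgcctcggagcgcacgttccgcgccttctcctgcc
Adam8, chr1:204218273-204218572, minus strand: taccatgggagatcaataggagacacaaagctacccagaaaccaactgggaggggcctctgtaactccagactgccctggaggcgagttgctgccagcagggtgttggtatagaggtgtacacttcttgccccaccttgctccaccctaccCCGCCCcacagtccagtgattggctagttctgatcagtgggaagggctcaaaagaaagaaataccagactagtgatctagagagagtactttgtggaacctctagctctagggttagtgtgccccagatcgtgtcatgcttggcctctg

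The printed windows have little in common. That of Adamts10 has 3 GC boxes, 1 TATA box and 31 CpG dinucleotides, and that of Adamts9 has 1 GC box and 30 CpG. The Adamts7 window has 1 TATA box and 0 CpG, and the Adamts4 window has neither motif and 4 CpG. The Adam8 window has 1 GC box and 3 CpG. Over the 19 genes a GC box was found in 12, against 34.9% of 27457 rat windows of this length: in 7 of the 13 genes that were higher in OVX, in both that were lower and in 3 of the 4 that were not called. A TATA box was found in 4 of the 19 (14.3% of all windows), namely Adamts1, Adamts7, Adamts10 and Adamtsl2. These 4 were among the 13 of the 19 genes that rose, and a link of the motif to the rise was not tested. The letters AGGTCA, which occur in hormone response elements, were in 5 (15.7% of all windows), the AP-1 letters TGACTCA in 1 (4.53%) and the Runx core TGTGGT in 0 (16.9%). Windows of the family were richer in GC than all windows (median 52.3%), with medians of 63.7% (higher), 62.65% (lower) and 66.3% (not called). The part of this composition in the motif counts was not tested. The motifs are matches of letters in a short window and not binding sites.

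Hyalectanases, the ADAMTS enzymes that cut aggrecan and versican, comprised 6 measured genes, of which 4 rose, 1 fell and 1 was not called. Adamts4, an aggrecanase of cartilage, had centred log2 values of -1.18, -1.42 and -1.50 in the sham pools, -0.15, 0.14 and 0.025 in OVX, -0.10, 0.23 and 0.046 in LTBB OVX and -0.025, 0.085 and 0.25 in STBB OVX. All 3 sham pools lay below every pool of ovariectomized rats. Adamts4 was higher in OVX than in sham by 1.37 on the log2 scale (SE 0.11, 2.59-fold, limma adjusted p = 2.69e-07).

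Adamts9, a broadly expressed proteoglycanase, read -1.24, -0.90 and -1.22 in sham and 0.13, -0.050 and -0.019 in OVX, a rise of 1.14 (SE 0.13). Its mean hides a disagreement between its 2 probe sets. Probe set 1376481_at was at -2.42, -2.44 and -2.73 in sham and 0.12, 0.086 and 0.011 in OVX, a difference of 2.60 (SE 0.092, limma adjusted p over probe sets = 5.24e-11). Probe set 1394518_at was at -0.063, 0.64 and 0.28 in sham and 0.15, -0.19 and -0.049 in OVX, a difference of -0.31 (SE 0.23) that was not called. The rise of Adamts9 therefore rests on 1 probe set.

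Adamts1, an early response gene that cuts versican, was at -0.89, -0.89 and -0.53 in sham and at 0.031, 0.045 and -0.091 in OVX, 0.76 higher (SE 0.12). Adamts5, the aggrecanase that lies next to Adamts1 in the order of protein-coding genes, was at -0.40, -0.37 and -0.78 in sham and 0.010, 0.16 and 0.043 in OVX, 0.59 higher (SE 0.098). Both neighbours thus rose, with no overlap between sham and OVX pools, and both probe sets of Adamts5 were called (0.56 and 0.62), as were 49.8 percent of all probe sets.

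Adamts8, which is known as an inhibitor of angiogenesis, went the opposite way. It was at 0.85, 1.39 and 0.74 in sham, 0.055, -0.26 and -0.021 in OVX, -0.046, 0.048 and -0.17 in LTBB OVX and -0.061, -0.012 and 0.012 in STBB OVX. Each sham pool was above every other pool, and the gene fell by 1.07 on the log2 scale (SE 0.14, 2.10-fold lower, limma adjusted p = 2.14e-05). Adamts15, its direct neighbour in the gene order and also a hyalectanase, was at -0.011, 0.00032 and 0.22 in sham and 0.10, -0.095 and -0.014 in OVX, which overlap (difference -0.071, SE 0.082, limma adjusted p = 0.486). The adjacent pair Adamts8 and Adamts15 thus differed in its calls, though the difference between them was not tested.

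Of the other ADAMTS proteases, 3 of 6 rose and none fell. Adamts10, which binds fibrillin and is mutated in Weill-Marchesani syndrome, had the largest rise of the family. It was at -1.59, -1.46 and -1.42 in sham, 0.14, 0.036 and 0.17 in OVX, 0.12, 0.013 and -0.031 in LTBB OVX and -0.025, 0.13 and -0.010 in STBB OVX. The 3 sham pools lay far below the rest, and the difference between OVX and sham was 1.60 (SE 0.075, 3.04-fold, limma adjusted p = 1.35e-09). Both of its probe sets rose, by 2.24 and 0.97.

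Adamts7 and Adamts12, related proteases known to bind and cut the cartilage protein COMP, rose as well. Adamts7 was at -1.58, -1.44 and -1.50 in sham, 0.092, -0.052 and 0.012 in OVX, -0.012, 0.082 and 0.053 in LTBB OVX and -0.048, 0.066 and 0.021 in STBB OVX, a rise of 1.52 (SE 0.067, 2.88-fold). Adamts12 was at -0.76, -1.06 and -1.15 in sham and 0.012, -0.11 and 0.20 in OVX, a rise of 1.02 (SE 0.10, 2.03-fold). In both genes the sham pools were below every other pool. Adamts6, a close relative of Adamts10, was at -0.018, 0.081 and 0.15 in sham and 0.018, -0.15 and 0.38 in OVX. Its OVX pools spread around the sham pools, and the difference of 0.011 (SE 0.13) was not called. Adamts16 (-0.039) and Adamts19 (-0.17), the other members of this set, were not called either.

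ADAMTS-like genes were called in 3 of 4 cases, 2 higher and 1 lower. Adamtsl2, mutated in geleophysic dysplasia, was at -0.68, -0.82 and -1.26 in sham and 0.15, -0.014 and 0.12 in OVX, 1.01 higher (SE 0.12). Adamtsl5 was 0.47 higher (SE 0.070), but only 1 of its 2 probe sets was called (0.85 and 0.10), and with the other probe set alone the call was lost (limma adjusted p = 0.413). Adamtsl4, a fibrillin-binding protein of the lens zonule, was at 0.13, 0.063 and 0.48 in sham and -0.067, -0.14 and -0.0014 in OVX and fell by 0.30 on the log2 scale (SE 0.098). Without sham pool 3, the highest of the sham pools, the difference was -0.17 and the call was lost (limma adjusted p = 0.0617), as it was without OVX pool 2 (limma adjusted p = 0.0686). Adamtsl1 differed by 0.025 (SE 0.11).

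Of the 7 sheddase ADAM genes 4 rose, 1 fell and 2 were not called. Adam17, the TNF-converting enzyme, was at -0.46, -0.58 and -0.77 in sham, -0.027, 0.055 and 0.0099 in OVX, 0.013, -0.0099 and 0.026 in LTBB OVX and 0.066, -0.033 and 0.056 in STBB OVX. The ovariectomized groups kept within a narrow band above the sham pools, and the rise was 0.62 (SE 0.077, 1.53-fold, limma adjusted p = 1.42e-05). Adam15, an ADAM of vessel and leukocyte adhesion, rose by 0.60 (SE 0.059), from -0.63, -0.54 and -0.58 in sham to 0.039, -0.031 and 0.036 in OVX. The mean of the 8 endothelial markers ranged from -0.81 to -0.68 in sham and from 0.017 to 0.049 in OVX, and their part in these rises was not tested.

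Adam10, the sheddase of Notch receptors, was at -0.21, -0.11 and -0.24 in sham, 0.024, 0.13 and -0.036 in OVX, 0.10, 0.18 and 0.047 in LTBB OVX and 0.22, -0.39 and 0.14 in STBB OVX. In the mean of its 2 probe sets the sham and OVX pools did not overlap. The difference of 0.22 (SE 0.13) did not pass the test (limma adjusted p = 0.154). Probe set 1388161_at differed by 0.41 (SE 0.21) and 1370955_at, whose pools overlapped, by 0.031 (SE 0.11), and neither was called. Between LTBB OVX and sham they differed by 0.64 and -0.051, and only the first was called. STBB OVX pool 2 lay below all sham pools, and without that array Adam10 passed with the same difference (limma adjusted p = 0.0178). Adam9 (0.34, SE 0.12) and Adam19 (0.21, SE 0.069) passed with small rises. The pools of Adam9 overlapped between sham and OVX, and its call was lost without sham pool 1 or 2 or OVX pool 1 or 2 (limma adjusted p of 0.0583 to 0.111). The call of Adam19, of whose 4 probe sets 2 were called, was lost without sham pool 3 or OVX pool 1 or 3 (limma adjusted p of 0.0559 to 0.0685). Adam33 was at 0.29, 0.29 and 0.19 in sham and 0.29, -0.42 and -0.053 in OVX and was not called (-0.32, SE 0.15, limma adjusted p = 0.0773). Without OVX pool 1, which lay at the height of the sham pools, it passed (-0.50, limma adjusted p = 0.00483).

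Adam8, a sheddase of leukocytes and osteoclasts, was the Adam gene with the largest fall. Its values were 1.04, 1.14 and 0.71 in sham, 0.048, -0.036 and -0.016 in OVX, -0.032, -0.22 and -0.21 in LTBB OVX and -0.041, 0.037 and -0.24 in STBB OVX. Every sham pool lay above every other pool. The fall (log2 difference -0.97, SE 0.11, 1.96-fold lower, limma adjusted p = 4.97e-06) came from probe set 1392754_at, which differed by -1.69 (SE 0.15), while probe set 1391720_at differed by -0.24 (SE 0.11) and was not called. All 4 measured neutrophil markers fell beside it. Their mean centred value ranged from 2.63 to 3.09 in sham and from -0.36 to 0.0076 in OVX. The 5 osteoclast markers rose instead, from between -3.11 and -2.79 in sham to between -0.034 and 0.15 in OVX. The part of either cell type in the fall of Adam8 was not tested.

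**Figure D2:**
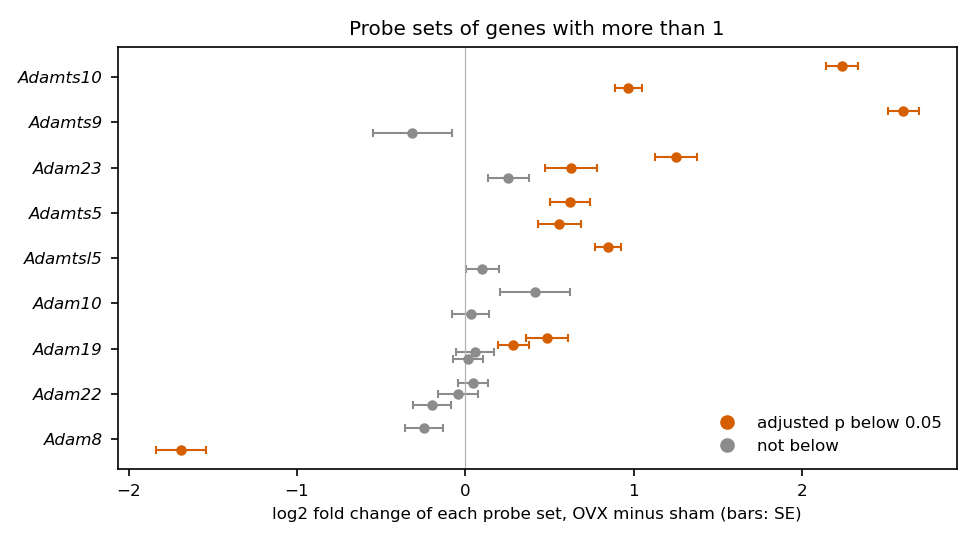
Log2 difference between OVX and sham (x axis) of each probe set of the 9 genes with several (y axis), with bars for the standard error and orange for adjusted p below 0.05 over all probe sets. The probe sets of Adamts9 (2.60 and -0.31) and Adam8 (-1.69 and -0.24) lie far apart, those of Adamts5 (0.56 and 0.62) lie together, and no gene has called probe sets of opposite sign.

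Of the 4 ADAM genes grouped here as lacking a catalytic site, Adam23 was called. Members described below with the sperm genes, Adam2, Adam7 and Adam18 among them, lack a catalytic site as well. Adam23, a receptor for LGI proteins in the nervous system, was at -0.46, -0.69 and -0.58 in sham and 0.080, 0.17 and 0.15 in OVX, 0.71 higher (SE 0.10). Of its 3 probe sets 2 were called (1.25 and 0.63), and the third differed by 0.25. Adam11 (-0.15, SE 0.17), Adam22 (-0.066, SE 0.078) and Adam32 (0.078, SE 0.099) were not called. In Adam11 a single sham pool, at 0.66, lay apart from the others at -0.11 and -0.033.

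The ADAM genes grouped here as known from sperm and the epididymis counted 7, of which 3 rose, 1 fell and 3 were not called. Adam18 was at -0.40, -0.021 and -0.39 in sham and 0.50, -0.089 and 0.36 in OVX, 0.53 higher (SE 0.14, limma adjusted p = 0.00626). Its pools overlapped, since sham pool 2 lay above OVX pool 2. Adam4 rose by 0.34 (SE 0.076) and Adam1a, a fertilin subunit, by 0.33 (SE 0.10). Without sham pool 1 or OVX pool 3 the call of Adam1a was lost (limma adjusted p of 0.0562 and 0.0514). Adam2, the other fertilin subunit, was at 0.11, 0.097 and 0.41 in sham and 0.030, -0.054 and -0.0022 in OVX and passed narrowly (-0.22, SE 0.084, limma adjusted p = 0.0406). Its call was lost in 9 of the 12 fits that left out an array, and without sham pool 3 the difference was -0.11 (limma adjusted p = 0.147). Adam3a (-0.25), Adam6 (-0.086) and Adam7 (-0.20) were not called, and of the 12 fits that left out an array Adam3a passed in that without OVX pool 1 (-0.47, limma adjusted p = 0.0175).

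Bone of female rats holds no male germ cells, and of 8 germ cell markers measured 1 was called, Acr, which was 0.30 higher. Their mean centred value ranged from -0.044 to 0.044 in sham and from -0.093 to 0.084 in OVX. Since the values are centred, it cannot be read whether these probe sets were above background. In the order of protein-coding genes Adam9 and Adam32 are adjacent, as are Adam3a and Adam18, with 1 gene between Adam32 and Adam3a. Along this run Adam9 and Adam18 rose and the members between them, Adam32 and Adam3a, were not called.

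No gene of the family was called between a BB diet and OVX or between the diets. Between LTBB OVX and OVX, 0 of 34 genes were called (0 percent of all genes), between STBB OVX and OVX 0 (0 percent) and between STBB OVX and LTBB OVX 0 (0 percent). At an unadjusted limma p below 0.05 there were 2, 0 and 0 genes, beside 2.31, 2.89 and 3.4 percent of all genes. The median differences of the family were -0.019, -0.014 and 0.019.

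The smallest p between LTBB OVX and OVX was that of Adamts16, a protease linked to blood pressure in rats. It was at 0.13, 0.18 and 0.047 in sham, 0.15, 0.091 and -0.0041 in OVX, -0.13, -0.11 and -0.16 in LTBB OVX and -0.0041, 0.0041 and -0.095 in STBB OVX. The LTBB OVX pools lay below all 9 others, and the difference from OVX was -0.21 (95% interval -0.35 to -0.069, limma adjusted p = 1). Adamts16 also passed between LTBB OVX and sham (-0.25, limma adjusted p = 0.00509). The other gene with an unadjusted p below 0.05 was Adam18, at -0.23, 0.045 and -0.14 in LTBB OVX and 0.021, 0.13 and 0.029 in STBB OVX. It differed from OVX by -0.37 under LTBB (95% interval -0.68 to -0.056, limma adjusted p = 1), and its LTBB OVX pools overlapped those of OVX. Adamts6 was next, at -0.26, 0.027 and -0.20 in LTBB OVX and -0.031, -0.036 and 0.26 in STBB OVX (LTBB OVX minus OVX -0.22, 95% interval -0.50 to 0.056).

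Between STBB OVX and OVX the smallest p-values belonged to Adamts16 (-0.11, 95% interval -0.25 to 0.031), Adamtsl4 (0.16, -0.052 to 0.37) and Adam4 (-0.12, -0.29 to 0.043). Adamtsl4 was at 0.0014, 0.11 and 0.16 in STBB OVX and -0.13, -0.13 and -0.061 in LTBB OVX, so that its STBB OVX pools lay above those of both other ovariectomized groups. Adam4 was at 0.060, 0.025 and 0.18 in OVX and -0.033, -0.083 and 0.019 in STBB OVX. Pools did not overlap in 2 of the 34 genes between STBB OVX and OVX, beside 9.38 percent of all genes, in 2 between LTBB OVX and OVX (8.7 percent) and in 2 between STBB OVX and LTBB OVX (10.9 percent). Between the BB diets Adamtsl4 (0.20, 95% interval -0.016 to 0.41), Adam22 (0.14, -0.028 to 0.31) and Adamts6 (0.20, -0.076 to 0.49) had the smallest p-values. Adam22, a non-proteolytic ADAM of synapses, was at -0.045, -0.11 and -0.20 in LTBB OVX and 0.061, 0.074 and -0.076 in STBB OVX, which overlap. The 3 probe sets of Adam22 disagreed in sign between the diets (0.29, 0.26 and -0.13), and none was called.

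A p above the threshold does not show that the diets left these genes as they were, and the intervals give the sizes that fit the arrays. All 34 intervals for STBB OVX against OVX and for STBB OVX against LTBB OVX lay within a 1.5-fold change in either direction, as did 32 of the 34 for LTBB OVX against OVX. The farthest bounds were -0.68 for Adam18 under LTBB, -0.51 for Adam3a under STBB and 0.58 for Adam6 between the diets. Among Adamts10, Adamts7 and Adamts4, the largest difference of a BB group from OVX was 0.098, that of Adamts4 under STBB.

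**Figure D3:**
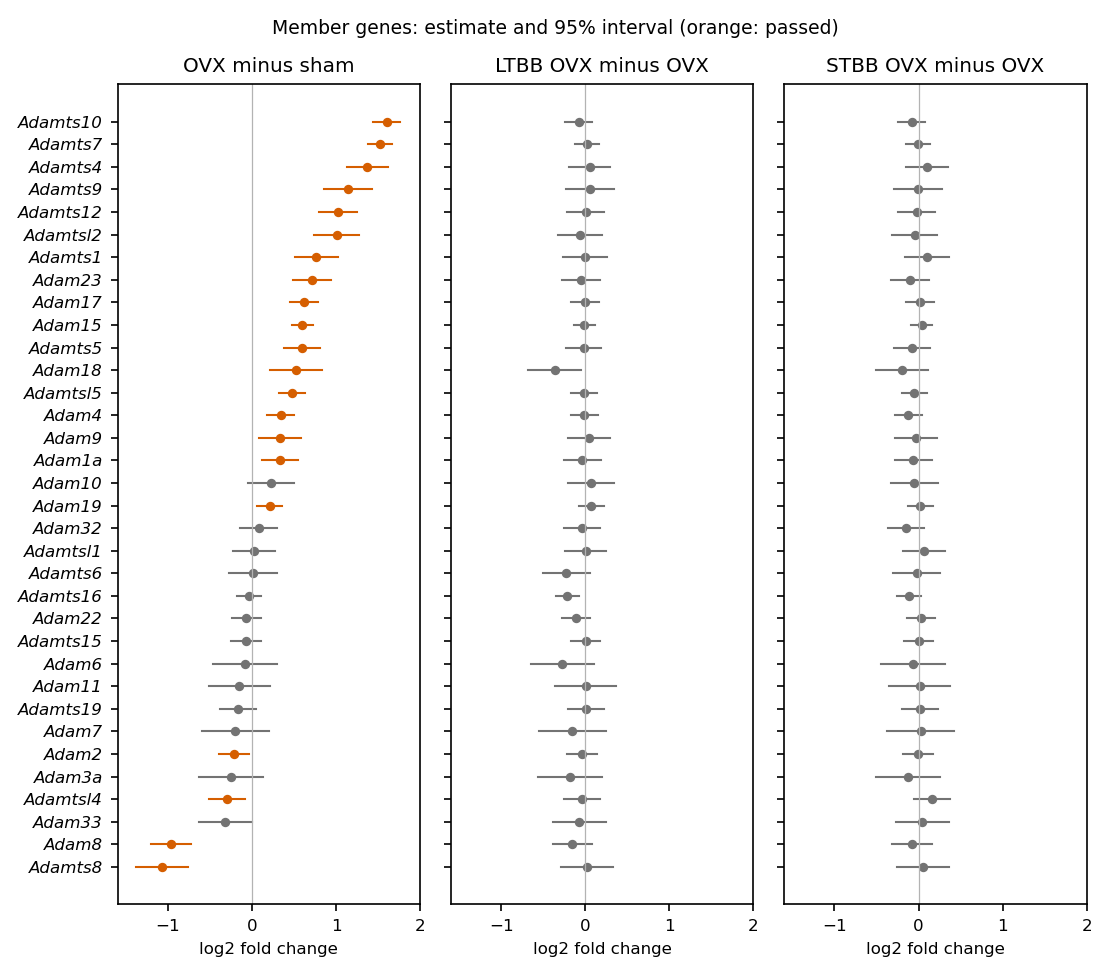
Log2 difference (x axis) of the 34 genes with its 95% interval, for OVX minus sham, LTBB OVX minus OVX and STBB OVX minus OVX, on the same scale, with orange for an adjusted p below 0.05. The OVX minus sham panel runs from -1.07 (Adamts8) to 1.60 (Adamts10), and no interval of the diet panels is orange.

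Against sham, 16 of the 34 genes were higher and 6 lower in LTBB OVX, where 29.2 percent of all genes were higher and 29.1 percent lower. In STBB OVX 16 were higher and 3 lower, where 29.3 percent of all genes were higher and 29 percent lower. The called share was 64.7% and 55.9%, beside 58.3 and 58.3 percent of all genes. These comparisons share the sham arrays with that of OVX and are no independent repeats of it. Adamts10 was above sham by 1.60 (OVX), 1.52 (LTBB OVX) and 1.52 (STBB OVX), and Adamts4 in the same order by 1.37, 1.43 and 1.47. Adamts8 was below sham in all of them (-1.07, -1.05 and -1.01), as was Adam8 (-0.97, -1.12 and -1.05). Adam18 passed in OVX (0.53) and not in LTBB OVX (0.16) or STBB OVX (0.33), Adam33 (-0.39) and Adamts16 (-0.25) passed in LTBB OVX, and Adamtsl4 was not called in STBB OVX (-0.13), and none of these genes was called in the diet contrasts, which test such differences. Deviations of same-numbered pools of sham and of each BB group correlated weakly (r of 0.10 to 0.23), as did those of some pools with different numbers. These comparisons were also fitted on their 2 groups with the pool number as a block. Between LTBB OVX and sham 25 genes were then called. Adam2 was lost (limma adjusted p = 0.0975), and Adam10 (0.29, adjusted p = 0.0196), Adam3a (-0.43, adjusted p = 0.0073), Adam6 (-0.36, adjusted p = 0.0438) and Adam7 (-0.35, adjusted p = 0.0402) were gained in limma. Between STBB OVX and sham 18 genes of the family were called, beside 7592 of all genes. Here Adam1a (adjusted p = 0.0831), Adam2 (adjusted p = 0.107) and Adam4 (adjusted p = 0.0598) were lost and Adam18 (0.33, adjusted p = 0.0218) and Adam33 (-0.27, adjusted p = 0.0349) gained in limma. Over the 4 groups the limma F-test called 21 of the 34 genes (55.6 percent of all genes).

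Other genes of the pathway were counted by list between OVX and sham, beside 30.3 percent of all genes higher and 28.6 percent lower. All 7 inhibitors and clearance receptors measured were called, 5 higher and 2 lower. Timp1, an inhibitor of metalloproteinases, was at -3.27, -3.27 and -3.17 in sham and 0.015, 0.050 and -0.0082 in OVX, 3.25 higher (SE 0.063). Timp2 (1.81), the membrane-bound inhibitor Reck (1.53), the syndecan Sdc4 (1.31) and Lrp1 (0.91), the receptor that clears ADAMTS4 and ADAMTS5, were higher. Timp3, the TIMP that inhibits ADAM17 and the aggrecanases, was lower, at 0.46, 0.20 and 0.28 in sham and -0.013, -0.10 and -0.11 in OVX (-0.39, SE 0.083). Timp4 was also lower (-0.34, SE 0.13).

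Of the 6 proprotein convertases and ADAMTS-modifying enzymes 5 rose, among them Pcsk6 (1.90), Pofut2, which adds fucose to thrombospondin repeats (1.34), and Pcsk5 (1.19). Furin, the convertase that removes the prodomain of many ADAM and ADAMTS proteins, fell by 0.71 on the log2 scale (SE 0.079). The 8 sheddase partners measured were divided, with 4 higher and 4 lower. Pacsin3 was among the lower, at 1.61, 1.56 and 2.44 in sham and -0.024, -0.11 and -0.10 in OVX. Of the iRhoms that carry ADAM17 to the cell surface Rhbdf1 was higher (1.43) and Rhbdf2 lower (-0.51). Of the tetraspanins that travel with ADAM10, Tspan15 (0.63) and Tspan17 (0.98) rose, while Tspan5 (-0.42) and Tspan33 (-2.04) were lower.

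Of 7 aggrecanase and versicanase substrates or their partners 4 were higher and 3 were not called. Acan, the aggrecan of cartilage, was at -3.35, -3.15 and -3.29 in sham and 0.45, -0.19 and 0.19 in OVX, 3.42 higher (SE 0.16). Hapln1, the link protein (6.4), Comp (5.09) and Vcan, versican (0.90), were the others. Both brain proteoglycans, Bcan and Ncan, and Matn1 were not called. Markers of cartilage moved with these genes, and Acan, Comp, Hapln1 and Matn1 are in both lists. The mean of the 9 cartilage markers ranged from -4.76 to -4.63 in sham and from -0.063 to 0.24 in OVX, against sham means of -1.51 for Adamts7 and -1.37 for Adamts4. The 9 stroma and tendon markers ranged in the mean from -0.86 to -0.59 in sham and from -0.034 to 0.023 in OVX. The part of cartilage or stroma in the rise of the Adamts genes was not tested.

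All 6 genes in the list of procollagen N-proteinase substrates rose (Col2a1 5.14, Col5a1 2.15, Col5a2 1.63). Of 25 sheddase substrates 13 rose, 5 fell and 7 were not called. Csf1r, the M-CSF receptor (2.82), Tnfsf11, which encodes RANKL (2.26), and Cdh2, N-cadherin (2.17), had the largest rises, and Cdh1, E-cadherin (-1.52), Egf (-1.48) and Il6r (-1.40) were the lowest. Tnf itself differed by -0.045 (SE 0.065) and was not called. Of 8 fibrillin and microfibril partners 5 rose, led by Fn1 (1.61) and Ltbp2 (1.47), and 3 fell, with Ltbp4 at -1.37. Of 9 other ADAMTS substrates and partners 6 rose, with Tfpi2 at 2.28 and Cspg4 at 1.57, and 2 fell, Reln (-1.73) and Vwf (-1.02). None of the genes in these lists was called in a diet contrast. Col2a1 was also counted among the cartilage markers, Col1a1 among those of osteoblasts, Csf1r among those of macrophages and Vwf among those of endothelium.

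**Figure D4:**
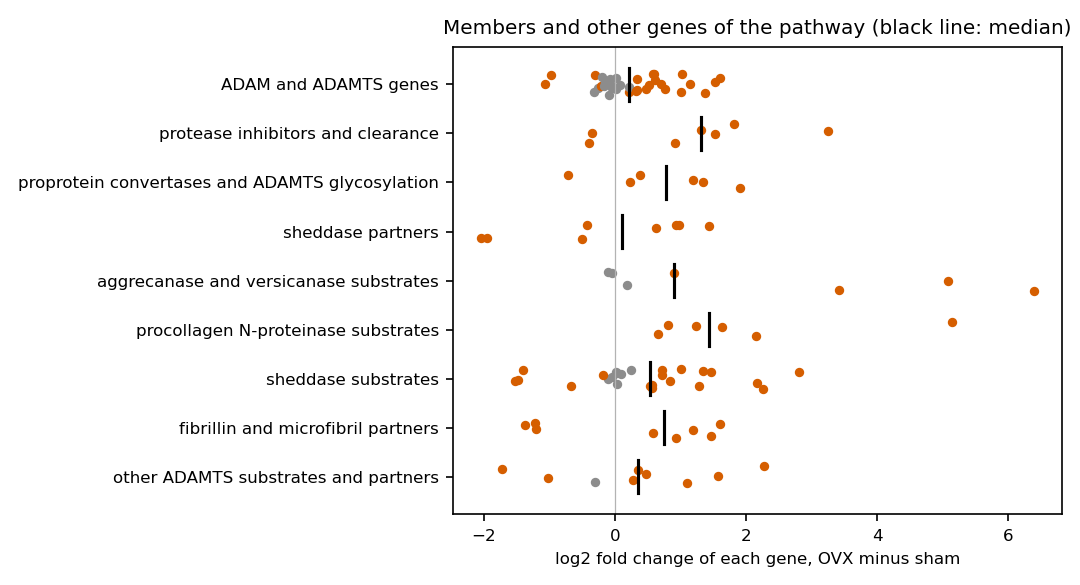
Log2 difference between OVX and sham (x axis) of each gene of the family and of 8 lists of related genes (y axis), with a point per gene, orange for an adjusted p below 0.05 and a black line at the median. The family spans -1.07 to 1.60 with a median of 0.22, the inhibitors reach 3.25 (Timp1) and the aggrecanase substrates 6.4 (Hapln1).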

How the data were processed

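Total RNA of rat long bone was measured on 12 Affymetrix arrays, and samples were grouped by their labels. The authors deposited log2 values, made by robust multiarray analysis, then floored in GeneSpring and normalized, first by array and then by probe set. GCOS and RMA appear in the submitters' processing notes without a version. The median of each probe set is 0. No scanner intensities were used, so background could not be checked, and the number of arrays limits the precision.

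Of 31099 probe sets 57 controls were left out, with no filter on dim probe sets. The platform annotation gave 1 symbol for 20826, several for 436 and none for 9780, and symbols were updated by gene ID through RefSeq (GRCr8). Genes were fitted with limma 3.58.1 in R 4.3.3 (lmFit, eBayes, 4 group means, Benjamini-Hochberg adjustment at 0.05); the fit was tested on simulated data. No tables of fold changes by the authors were used.

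The member genes, gene lists, tests and alternatives were chosen with earlier results of these data known. Every member may be named. Values per array of the groups compared are given for the 8 largest called rises and falls (only 4 members fell), for Adam10, Adam17, Adamts1, Adamts4 and Adamts5, and for the 3 smallest p-values of each diet contrast. Of each pathway list up to 3 genes with the largest changes were named; further genes were named for their roles after their values were seen. Pool numbers come from the sample titles, which do not say that a number marks a shared batch. Deviations from the group means over all genes correlated above 0.1 in all 3 same-numbered pairs of sham with LTBB OVX (r of 0.11 to 0.23) and of sham with STBB OVX (0.10 to 0.17), and in 0 of 3 in each other pair of groups. Of the 36 pairs of pools with different numbers 8 were also above 0.1, up to 0.38, so such r alone do not mark a shared number. Alternatives varied scaling, weights, samples, thresholds, variances, the replicate block and the probe set that stands for a gene. The plots used matplotlib 3.10.9 (Python 3.11.15).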

Additional observations from a re-analysis of the deposited data

How the results depend on the processing

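Quantile normalization once more gives all arrays the same distribution of values and lowered the counts most. It was applied to centred values, in which the family's group means ran from -1.51 to 0.99 in sham and from -0.076 to 0.26 in OVX. Making such distributions alike changes differences by itself, so a call lost under this setting does not show that a gene was unchanged. The difference of Adam18, for one, grew to 0.89 while its call was lost (limma adjusted p = 0.0615). Under quantile normalization 8 genes of the family were called between OVX and sham (7 higher, 1 lower), 10 between LTBB OVX and sham, 7 between STBB OVX and sham and 6 by the F-test, while all genes called fell to 3010, 3192, 3142 and 2781. Adamts4 (0.55, limma adjusted p = 0.0864), Adamts9 (0.42, adjusted p = 0.417), Adamts1 (0.29, adjusted p = 0.335) and Adam8 (-0.38, adjusted p = 0.126) were among the 13 that lost their call. With a fold of at least 1.5 also required the counts against sham were 13, 12 and 12, beside 4319, 4291 and 4333 of all genes. Leaving out each array in turn gave 18 to 21, 20 to 24 and 15 to 21 genes of the family against sham. All genes called then ranged from 7654 to 8320, 7636 to 8303 and 7673 to 8280. Adam8 (-0.24, limma adjusted p = 0.0795) and Adamtsl5 lost their calls when the first probe set stood for the gene. Fitted on the OVX and sham arrays alone, 17 genes of the family were called, beside 7514 of all genes. Adam2, Adam9, Adam19 and Adamtsl4 then lost their calls (limma adjusted p of 0.0537 to 0.111). The 3 diet contrasts had 0 genes under every alternative, also with the arrays of OVX rats alone, an alternative chosen after seeing the data. None of the genes called in the 3 comparisons with sham changed direction under the alternative fits of gene values. Genes that were not called and did so between OVX and sham were Adam6 (0.19), Adamts16 (0.060) and Adamtsl1 (-0.039) under quantile normalization and Adamtsl1 (-0.091) under array weights. With each array left out in turn, the difference crossed 0 for Adam11 (-0.29 to 0.095, highest without sham pool 2), Adam32 (-0.0081 to 0.13, lowest without sham pool 1), Adam6 (-0.23 to 0.10, highest without sham pool 2), Adamts15 (-0.12 to 0.0037, highest without sham pool 3), Adamts16 (-0.075 to 0.0033, highest without OVX pool 3), Adamts6 (-0.14 to 0.13, lowest without OVX pool 3) and Adamtsl1 (-0.094 to 0.14, lowest without OVX pool 1). The cause of these changes was not tested.

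Between OVX and sham the deviations of same-numbered pools had r of -0.19 to -0.046. These few correlations do not settle whether the number marks a shared batch. With the pool number as a replicate block over all 12 arrays 20 genes were called between OVX and sham, 23 between LTBB OVX and sham, 17 between STBB OVX and sham and 0 in the diet contrasts. Beside them stood 8196, 8137 and 8154 of all genes in the comparisons with sham. Calls that this block changed were Adam2 between OVX and sham (limma adjusted p = 0.0618), Adam3a, gained between LTBB OVX and sham (limma adjusted p = 0.0489), and Adam1a and Adam2, lost between STBB OVX and sham (limma adjusted p of 0.053 and 0.0539). The block on 2 groups alone, given with the comparisons of the BB groups with sham, was chosen after seeing the data.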
